A study of Mus musculus with 9 samples.

Results

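The genes described here are 10 defence, acute phase and protease inhibitor genes of the lung, *Lcn2*, *Saa3*, *Reg3g*, *Pigr*, *Slpi*, *Lyz1*, *Lyz2*, *Hp*, *Wfdc2* and *Spink5*, chosen by name out of 34638 genes in the deposited table. Their RNA was measured by RNA-seq in whole lungs of 9 wild-type C57BL/6 mice, 3 in each of 3 groups. Control mice were given PBS by the intratracheal route. IL-33 mice received 0.5 µg of recombinant mouse IL-33, an epithelial alarmin that drives type 2 airway inflammation, by the same route on each day from day 0 to day 3. IL-33+LM8 mice received the same IL-33 challenges and, before them, LM8, an inhibitor of the adaptor protein MyD88, at 10 mg/kg into the peritoneum. Control and IL-33 mice were females of 6 to 8 weeks, and their lungs were taken on day 4. The sources used here give neither the age, the sex nor the day of collection of the IL-33+LM8 mice, so that those could not be compared with the other groups, and no group received LM8 without IL-33. Levels are given in FPKM, which sets a gene's reads against its length and the size of the library, and changes as log2 fold changes of counts from edgeR's quasi-likelihood test.

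Airway epithelium keeps microbes in check with secreted proteins that starve them of iron, break their walls or bind their surface, and part of this set is also made in liver or stored in neutrophils and macrophages. Acute phase genes such as *Saa3*, *Lcn2* and *Hp* are known targets of IL-6 family cytokines, IL-1 and IL-17, acting through STAT3, C/EBP and NF-kB factors. The WAP domain and Kazal proteins hold serine proteases of neutrophils and epithelium in check, and the polymeric immunoglobulin receptor carries IgA across the epithelium into the airway. In whole lung, fewer cells of a type and less RNA per cell cannot be told apart. In the table's own coordinates, whose build is not stated, *Lyz2* and *Lyz1* were neighbours on chromosome 10, 5.47 kb apart, and *Slpi* and *Wfdc2* lay on chromosome 2, 206 kb apart. No stretch of 150 bases, the read length, was shared between the annotated transcripts of any of the 10 genes and another gene, whereas 422 of 1233 stretches of 31 bases in *Lyz1* also occurred in *Lyz2*. *Slpi* overlaps *Mir7678*, which held 0 or 1 counts in each mouse.

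Libraries held between 53877663 and 90607218 counts. They were of 2 kinds that the labels do not name, and this was noticed after the values were seen. In 6 libraries, 10 liver transcripts summed to between 292.5 and 508.5 FPKM, and *Alb* alone, the gene of serum albumin, to between 139.2 and 266.7 FPKM. In the other 3 libraries, control replicate 3, IL-33 replicate 1 and IL-33+LM8 replicate 3, the same transcripts summed to between 2.31 and 3.38 FPKM. The kinds were balanced over the groups, 2 libraries with and 1 without in each. In a fit of all 9 mice with group and library kind, 237 of 16831 genes (1.41%) differed between kinds by edgeR at an adjusted p under 0.05 and by 1 or more on the log2 scale, and 0 of the 10 genes did. At an adjusted p under 0.05 with no minimum fold change, *Wfdc2* was the single one of the 10 that differed, 0.20 higher on the log2 scale (standard error 0.04, adjusted p = 0.0350) in libraries with liver transcripts. *Hp*, *Slpi* and *Wfdc2* were each lowest, within all 3 groups, in the library without them. Each result was therefore also computed with library kind as a term and from the 6 libraries with liver transcripts alone.

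IL-33 moved the 10 genes in opposite directions. Against control mice, *Lcn2*, *Saa3*, *Reg3g*, *Pigr* and *Slpi* rose in IL-33 mice and *Lyz1*, *Lyz2* and *Spink5* fell, so that 8 of 10 genes were called (edgeR, adjusted p under 0.05 and a change of 1 or more on the log2 scale), against 17.0% of all genes tested. The 5 that rose compare with 10.8% of genes called higher, and the 3 that fell with 6.24% called lower. Without the minimum fold change, *Hp* and *Wfdc2* also passed as lower, which made 10 of 10 against 54.6% of all genes. The FPKM of IL-33 and control mice did not overlap for any of the 10 genes, as for 63.4% of all genes. All 10 genes passed the filter on low values. Both other fits for library kind gave the same 8 genes.

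*Lcn2* encodes lipocalin 2, which binds the siderophores that bacteria use to take up iron. Its level was 18.7, 22.7 and 20.1 FPKM in the 3 control mice, 134, 148 and 123 FPKM in the IL-33 mice and 125, 138 and 125 FPKM in the IL-33+LM8 mice. Every mouse given IL-33 lay far above every control mouse, and the range of the IL-33+LM8 mice lay within that of the IL-33 mice. Between IL-33 and control mice the ratio of mean FPKM was 6.57 ± 0.902 (SD, n = 3), with a log2 fold change of 2.71 (standard error 0.10, edgeR adjusted p = 1.9e-06).

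*Saa3* encodes a serum amyloid A, an acute phase apolipoprotein that mice make outside the liver. It was close to silent in control lungs, at 0.353, 0.667 and 0.236 FPKM, and reached 20.5, 24.4 and 20.4 FPKM in IL-33 mice. This was the largest rise of the 10 genes, with a ratio of mean FPKM of 52.0 ± 28.2 (SD, n = 3) and a log2 fold change of 5.69 (standard error 0.35, edgeR adjusted p = 1.4e-05). In IL-33+LM8 mice it was 7.87, 15.7 and 11.8 FPKM, below every IL-33 mouse and above every control mouse. The liver-made relatives *Saa1* and *Saa2* were listed at 0 to 0.127 FPKM and 0 to 0.0736 FPKM in the 3 libraries without liver transcripts. They differed between library kinds (edgeR adjusted p = 0.0046 and 0.0217), but the kinds were set by liver transcripts, so that difference was built in. *Saa3* differed between kinds by 0.25 on the log2 scale (standard error 0.26, edgeR adjusted p = 0.85). The 250 bases before the annotated start of *Saa3*, on the minus strand at chr7:46715677-46715926 of GRCm38.p6 (RefSeq), are shown because C/EBP factors are known regulators of serum amyloid genes. Capitals mark matches to TTNNGNAA, a C/EBP core, on either strand.
Saa3: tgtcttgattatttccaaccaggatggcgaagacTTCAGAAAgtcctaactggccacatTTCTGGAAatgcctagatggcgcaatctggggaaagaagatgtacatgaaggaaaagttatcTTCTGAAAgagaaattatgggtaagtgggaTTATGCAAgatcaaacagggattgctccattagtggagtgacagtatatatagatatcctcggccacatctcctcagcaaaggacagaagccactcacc
The window held 4 matches, starting 216, 191, 129 and 99 bases before the start. At least 4 matches occurred in 194 of 32851 RefSeq windows of this length (0.591%), and at least 1 in 36.8%. The cutoff of 4 is the count of this window itself, the highest among the windows used here, so the 0.591% carries no test. Such a match is a run of letters and no evidence of binding.

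*Reg3g*, which encodes a C-type lectin that binds the wall of Gram-positive bacteria, was 5.59, 16.6 and 8.34 FPKM in control mice, 78.6, 98.1 and 75.7 FPKM in IL-33 mice and 56.7, 119 and 82.2 FPKM in IL-33+LM8 mice. Every mouse given IL-33 was above every control mouse, and replicate 2 was the highest mouse in each group. The log2 fold change between IL-33 and control mice was 3.05 (standard error 0.38, edgeR adjusted p = 0.00041). Its promoter, at chr6:78468875-78469124 on the minus strand of GRCm38.p6 (RefSeq), is printed as the single window among those of the 10 genes with a match to the NF-kB motif, which is in capitals.
Reg3g: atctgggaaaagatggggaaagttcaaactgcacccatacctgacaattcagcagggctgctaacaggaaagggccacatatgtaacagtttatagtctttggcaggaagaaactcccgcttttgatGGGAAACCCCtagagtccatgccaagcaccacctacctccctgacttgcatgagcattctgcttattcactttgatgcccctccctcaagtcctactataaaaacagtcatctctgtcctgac
The match began 123 bases before the start. A match occurred in 7.25% of all RefSeq windows, and 8 of the 10 genes had a window, so that 1 of 8 was near the background. The STAT motif TTCNNNGAA was in 0 of the 8 windows and in 7.02% of all windows, and the C/EBP core in 6 of 8. Windows for *Spink5* and *Hp* were not used here.

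*Pigr*, the gene of the polymeric immunoglobulin receptor, was 19.5, 23.2 and 20.2 FPKM in control mice and 69.2, 69.2 and 69.8 FPKM in IL-33 mice. The IL-33 mice lay within 1 FPKM of each other and were 3.31 ± 0.312 times the control level (SD, n = 3, log2 fold change 1.73, standard error 0.07, edgeR adjusted p = 2.7e-06). *Slpi*, an inhibitor of neutrophil elastase and cathepsin G, was 6.51, 7.60 and 4.46 FPKM in control mice and 15.5, 18.8 and 17.2 FPKM in IL-33 mice. Its ratio of 2.78 ± 0.763 (SD, n = 3) was the smallest among the 5 genes that rose (log2 fold change 1.47, standard error 0.20, edgeR adjusted p = 0.00069).

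Both lysozyme genes fell, and *Lyz1* fell further than *Lyz2*. Lysozymes cut the peptidoglycan of bacterial walls, and both genes are active in alveolar type 2 cells and, for *Lyz2*, in macrophages. *Lyz2*, by far the most abundant of the 10 genes, was 3309, 4048 and 3456 FPKM in control mice, 1521, 1617 and 1548 FPKM in IL-33 mice and 2391, 1875 and 2062 FPKM in IL-33+LM8 mice. *Lyz1* was 186, 206 and 184 FPKM, 36.2, 31.1 and 47.5 FPKM, and 92.0, 77.3 and 79.0 FPKM in the same order. For both genes the 3 groups did not overlap, with IL-33+LM8 mice between the others. The control level was 2.31 ± 0.261 times that of IL-33 mice for *Lyz2* and 5.02 ± 1.15 times for *Lyz1* (SD, n = 3), with log2 fold changes of -1.21 (standard error 0.09) and -2.33 (standard error 0.15, edgeR adjusted p = 3.5e-05 and 2.0e-05). Per length, *Lyz1* was 5.34% ± 0.260 of *Lyz2* in control mice, 2.46% ± 0.578 with IL-33 and 3.93% ± 0.163 with IL-33+LM8 (SD, n = 3). These shares did not overlap between groups, and with 3 mice against 3 an exact permutation test cannot give a two-sided p under 0.1. Reads that fit both genes could be split by the counting, which would draw their values together.

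The promoters of the lysozyme pair are shown because the genes are neighbours that moved the same way to different extents. Both are on the minus strand of GRCm38.p6 (RefSeq), at chr10:117292869-117293118 and chr10:117282273-117282522, and capitals mark the bases that differ between them in a global alignment.
Lyz1: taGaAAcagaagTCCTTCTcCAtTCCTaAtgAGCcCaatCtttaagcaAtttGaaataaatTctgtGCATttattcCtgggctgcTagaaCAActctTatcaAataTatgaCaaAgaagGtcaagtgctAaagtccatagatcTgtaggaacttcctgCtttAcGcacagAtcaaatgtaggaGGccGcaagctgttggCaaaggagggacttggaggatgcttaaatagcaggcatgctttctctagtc
Lyz2: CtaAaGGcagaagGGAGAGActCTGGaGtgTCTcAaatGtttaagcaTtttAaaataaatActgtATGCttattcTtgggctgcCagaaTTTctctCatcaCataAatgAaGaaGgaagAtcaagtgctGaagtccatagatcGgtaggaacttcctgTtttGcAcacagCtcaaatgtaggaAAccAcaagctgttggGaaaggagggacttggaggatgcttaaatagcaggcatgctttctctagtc
Of 248 aligned positions 200 were identical (80.6%), and the last 50 bases before the start had no difference. Neither window held the NF-kB or STAT motif, and each held 1 C/EBP core, 209 bases before the start in *Lyz1* and 55 in *Lyz2*.

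*Hp*, the gene of haptoglobin, which captures free haemoglobin and is made in liver and in lung epithelium, was 573, 617 and 556 FPKM in control mice and 284, 305 and 330 FPKM in IL-33 mice. Its log2 fold change was -0.93 (standard error 0.08, edgeR adjusted p = 5.8e-05), just short of the minimum fold change. In the libraries without liver transcripts it was 555.6 FPKM in the control mouse, 284 FPKM in the IL-33 mouse and 458 FPKM in the IL-33+LM8 mouse, 1 library a group and therefore without a test, and *Alb* was at 0.627 FPKM or less in these 3. In the fit with group and library kind, *Hp* was 0.15 higher on the log2 scale in libraries with liver transcripts (standard error 0.05, edgeR adjusted p = 0.24). The part of liver RNA in the *Hp* values was not tested beyond this. *Wfdc2*, a WAP domain protein of airway secretions, was 233, 250 and 204 FPKM in control mice and 138, 157 and 155 FPKM in IL-33 mice. Its log2 fold change was -0.61 (standard error 0.09, edgeR adjusted p = 0.0010), the smallest of the 10.

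*Spink5*, which encodes LEKTI, an inhibitor of epithelial kallikreins, was the least abundant of the 10 genes in IL-33 mice, and its fall was the steepest of the 10. It was 2.59, 1.40 and 2.07 FPKM in control mice, 0.0824, 0.323 and 0.116 FPKM in IL-33 mice and 1.88, 1.15 and 1.54 FPKM in IL-33+LM8 mice. Behind these levels stood 434 to 808 counts per control mouse, 27 to 97 per IL-33 mouse and 356 to 694 per IL-33+LM8 mouse. Control and IL-33+LM8 mice overlapped, and the IL-33 mice lay below both. The log2 fold change between IL-33 and control mice was -3.53 (standard error 0.54, edgeR adjusted p = 0.0012), rank 6 from the lowest among 16831 genes tested. Without IL-33 replicate 2, the mouse with the highest level in its group, it was -4.32, and over all mice left out in turn it ran from -4.32 to -3.17.

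**Figure D1:**
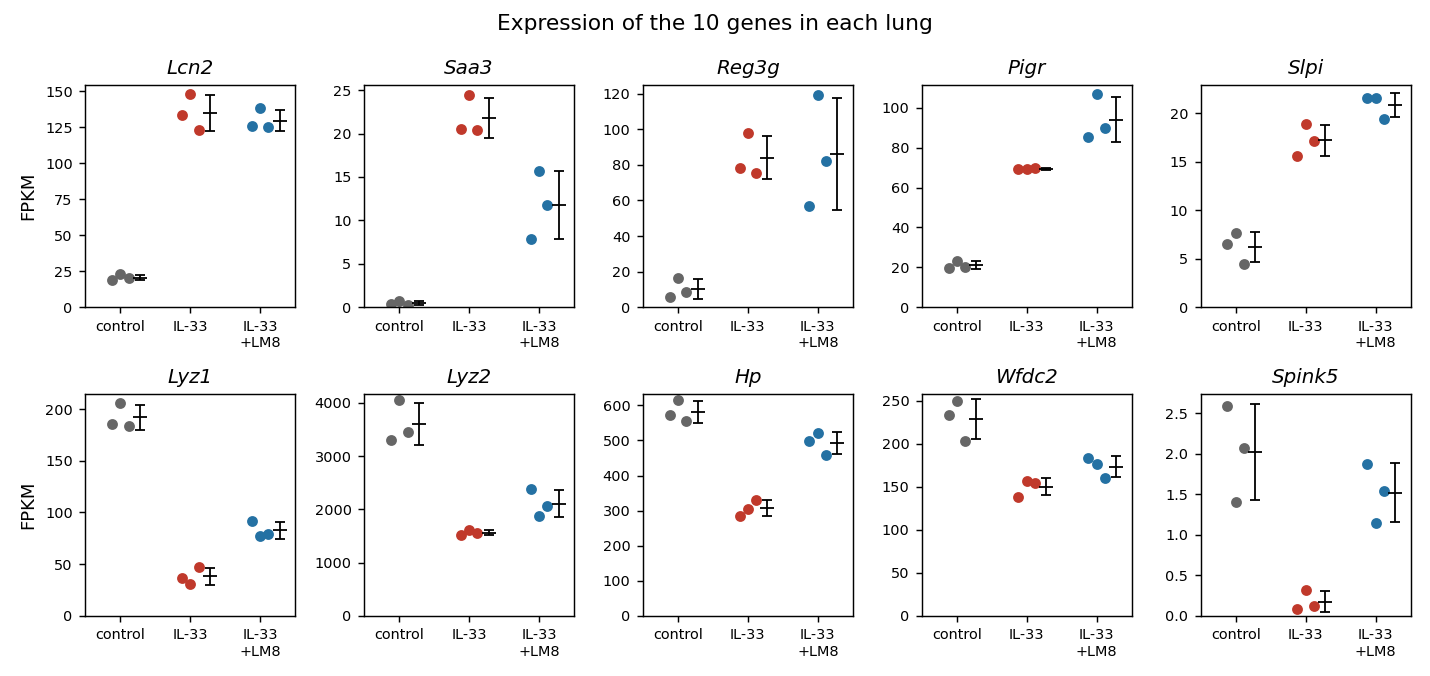
FPKM (y axis, linear, from 0) of each of the 10 genes in each mouse of the control, IL-33 and IL-33+LM8 groups, with points for mice in the order of their replicate numbers and the bar for the mean ± SD of 3 mice. The upper row holds the 5 genes that were higher in IL-33 mice than in control mice, and the lower row the 5 that were lower.

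With LM8 added to IL-33, fewer of the 10 genes were called. In IL-33+LM8 mice compared with IL-33 mice, *Spink5* and *Lyz1* rose, which made 2 of 10 genes called by edgeR, against 5.39% of all genes tested and 1.46% called higher. At an adjusted p under 0.05 with no minimum fold change, *Pigr*, *Lyz1*, *Lyz2*, *Spink5* and *Hp* were higher and *Saa3* was lower, 6 of 10 against 26.5% of all genes (12.6% higher and 13.9% lower). The FPKM of the groups did not overlap for 8 of 10 genes, against 43.2% of all genes. With library kind as a term *Slpi* and *Wfdc2* joined these 6, which made 8. In the libraries with liver transcripts alone 3 remained (*Hp*, *Spink5* and *Lyz1*), but there both the library kind and the number of mice, 2 against 2, differ from the first fit.

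*Spink5* in IL-33+LM8 mice was 8.75 ± 6.89 times the IL-33 level (SD, n = 3), with a log2 fold change of 3.12 (standard error 0.51, edgeR adjusted p = 0.0041). This value was 3.92 without IL-33 replicate 2 and ran from 2.78 to 3.92 with each mouse left out in turn. *Lyz1* was 2.16 ± 0.521 times the IL-33 level (SD, n = 3, log2 fold change 1.11, standard error 0.16, edgeR adjusted p = 0.0020). Without IL-33 replicate 2 the *Lyz1* value was 0.98, under the minimum, and *Spink5* was then the single gene called. *Hp* was 499, 520 and 458 FPKM in IL-33+LM8 mice, each above each IL-33 mouse, with a log2 fold change of 0.69 (standard error 0.08, edgeR adjusted p = 0.0011). *Lyz2* rose by 0.43 on the log2 scale (standard error 0.10, edgeR adjusted p = 0.0148).

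Among the genes that IL-33 had raised, *Saa3* alone was lower with LM8 at an adjusted p under 0.05. Its mean of 11.8 ± 3.90 FPKM was 54.1% of the IL-33 mean of 21.8 ± 2.29 FPKM (SD, n = 3, log2 fold change -0.88, standard error 0.23, edgeR adjusted p = 0.0275). Without IL-33+LM8 replicate 2, the mouse with the highest value in its group, the log2 fold change was -1.15 and passed the minimum. *Pigr* went the other way, from 69.4 ± 0.336 FPKM to 85.6, 107 and 89.8 FPKM, a log2 fold change of 0.44 (standard error 0.09, edgeR adjusted p = 0.0105). *Slpi* was 21.5, 21.5 and 19.4 FPKM in IL-33+LM8 mice, with each mouse above each IL-33 mouse, and its log2 fold change of 0.28 did not pass (standard error 0.10, edgeR adjusted p = 0.079). *Wfdc2*, one of the genes that IL-33 lowered, was 184, 176 and 160 FPKM, all above the IL-33 range, with a log2 fold change of 0.21 that did not pass either (standard error 0.08, edgeR adjusted p = 0.084).

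No difference was detected between IL-33+LM8 and IL-33 mice for *Lcn2* and *Reg3g*, with intervals of unequal width. For *Lcn2* the log2 fold change was -0.06 with a 95% interval from -0.25 to 0.14 (edgeR adjusted p = 0.66). For *Reg3g* it was 0.04 with a wider interval, from -0.55 to 0.62 (edgeR adjusted p = 0.94).

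IL-33+LM8 mice were also set against control mice. In this comparison *Lcn2*, *Saa3*, *Reg3g*, *Pigr* and *Slpi* were higher and *Lyz1* was lower, 6 of 10 genes called by edgeR against 7.33% of all genes (5.87% higher and 1.46% lower). With no minimum fold change *Lyz2* and *Wfdc2* were lower too, 8 of 10 against 29.7% (16.3% higher and 13.4% lower). The groups did not overlap for 9 of 10 genes against 47.3%. Log2 fold changes of the genes that were higher ran from 1.76 for *Slpi* (standard error 0.20, edgeR adjusted p = 0.00087) to 4.82 for *Saa3* (standard error 0.44, edgeR adjusted p = 0.00037), and *Pigr* stood at 2.18 (standard error 0.11, edgeR adjusted p = 3.7e-05). *Lyz1* was still 2.32 ± 0.271 times higher in control mice (SD, n = 3). For *Hp* the log2 fold change was -0.23 with a 95% interval from -0.42 to -0.03 (edgeR adjusted p = 0.077), and for *Spink5* -0.40 with an interval from -1.02 to 0.22 (edgeR adjusted p = 0.30).

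**Figure D2:**
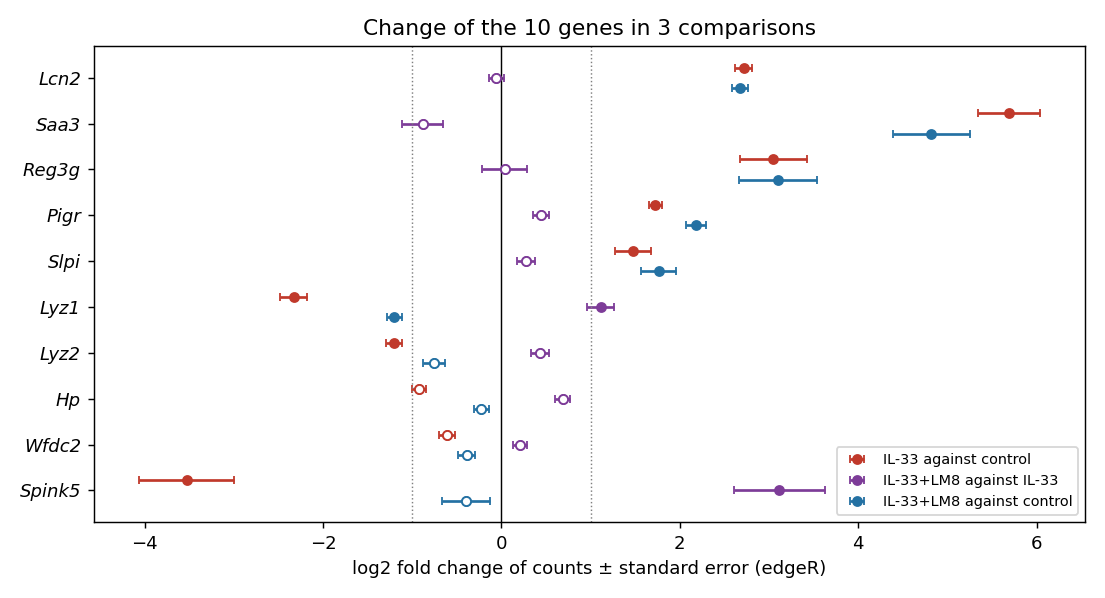
Log2 fold change of counts with its standard error (x axis, edgeR) for the 10 genes (y axis) in the 3 comparisons, with filled points for genes called and dotted lines at the minimum change of 1 either way. With LM8 added to IL-33, *Spink5* at 3.12 and *Lyz1* at 1.11 are filled on the right, and *Saa3* at -0.88 is the open point farthest to the left.

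As a description, the share of the difference between IL-33 and control means that was left in IL-33+LM8 mice was computed from mean FPKM. The control and IL-33 mice enter both sides of this share, so it carries no test. It was 95.3% for *Lcn2* (90.6% to 101.1% when 1 mouse at a time was left out) and 102.7% for *Reg3g* (80.2% to 122.5%). *Slpi* and *Pigr* went beyond the IL-33 level, at 133.1% (123.8% to 143.8%) and 151.3% (137.9% to 160.1%). *Saa3* kept 53.2% (44.1% to 62.4%). For genes that IL-33 had lowered, *Lyz2* kept 73.2% (67.4% to 80.1%), *Lyz1* 71.0% (69.0% to 74.1%) and *Wfdc2* 70.4% (62.1% to 77.0%) of the fall. *Hp* kept 32.4% (26.2% to 37.4%) and *Spink5* 27.0% (13.7% to 37.4%). These shares are of linear FPKM, and on the log2 scale LM8 added to IL-33 went with a larger rise of *Lyz1* (1.11) than of *Lyz2* (0.43).

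The order of levels, in FPKM, changed with IL-33. *Lyz2* led in every group, followed by *Hp* and *Wfdc2*. In control mice came *Lyz1*, whose range overlapped that of *Wfdc2*, then *Pigr* and *Lcn2*, whose ranges overlapped, then *Reg3g* and *Slpi*, which overlapped too, then *Spink5* and *Saa3*. In IL-33 mice *Lcn2* had reached the range of *Wfdc2*, and *Reg3g* and *Pigr* had passed *Lyz1*, which had a mean of 38.3 FPKM. With LM8 added, the ranges of *Pigr*, *Reg3g* and *Lyz1* overlapped, at means of 94.2, 86.1 and 82.8 FPKM. Within groups, replicate 2 was the highest mouse for 9 of 10 genes in control mice, 7 with IL-33 and 6 with IL-33+LM8.

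The cytokines and regulators known to act upstream of these genes were measured in the same lungs. Of the 23 listed, *Il17a*, *Il17f*, *Il22* and *Il11* did not pass the filter on low values and were not tested. *Il17a* and *Il17f* were at 0 in all control mice, and *Il22* was at 0 in all IL-33 and IL-33+LM8 mice. Of 19 that were tested, 4 rose and 0 fell by edgeR with IL-33 against control, beside 10.8% and 6.24% of all genes, with a median log2 fold change of 0.39 against -0.01 over all genes and 0.43 over the 10. *Il6* rose by 4.15 (standard error 0.26, edgeR adjusted p = 1.6e-05), *Osm*, an IL-6 family cytokine, by 2.39, *Il1b* by 1.81 and *Socs3*, the feedback inhibitor of STAT3 signalling, by 1.36 on the log2 scale. With LM8 added, *Il6* fell from 2.60 ± 0.625 to 1.11 ± 0.210 FPKM (SD, n = 3, log2 fold change -1.22, edgeR adjusted p = 0.0086), as *Saa3* was lower. *Il1b* and *Tnf* rose with LM8 by 1.14 and 1.34 on the log2 scale, *Tnf* not in the libraries with liver transcripts alone (1.24), and *Osm* and *Socs3* had values of -0.04 and 0.12 that did not pass. With LM8, 2 of the 19 were higher and 1 lower, beside 1.46% and 3.93% of all genes. *Il6st*, the signalling receptor shared by the IL-6 family and the most abundant of the 19, differed by 0.05 with IL-33 and by 0.50 with LM8, under the minimum. For the C/EBP genes the spread was between library kinds: *Cebpb* was 0.497 to 1.27 FPKM in the 6 libraries with liver transcripts and 6.25 to 44.6 FPKM in the other 3, and *Cebpd* 8.26 to 14.2 FPKM and 29.3 to 42.7 FPKM.

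Of 18 other acute phase genes tested, 4 rose with IL-33 and 0 fell by edgeR, beside 10.8% and 6.24% of all genes. Their median log2 fold change was 0.74, but this median includes the 9 of the 18 that were called for library kind. *Serpina3n*, a protease inhibitor whose near-identical family members can share its reads, went from 39.2 ± 6.51 to 412.5 ± 22.5 FPKM (SD, n = 3, log2 fold change 3.39, standard error 0.13, edgeR adjusted p = 2.4e-06), and its relative *Serpina3m* rose by 2.29. *Ptx3*, the gene of pentraxin 3, rose by 2.07, and *Steap4*, a metalloreductase, by 1.18. With LM8 added 0 of the 18 were called, beside 5.39% of all genes. With no minimum fold change 3 passed, all as higher and among them *Steap4* at 0.87, beside 26.5% of all genes. Standard errors in this comparison were 1.38 for *Saa1* and 1.67 for *Saa2*, against 0.08 for *Lcn2*. A change in genes that vary so much could hardly be called. Of these 18 genes 9 were called for library kind, among them *Saa1*, *Saa2* and the fibrinogen genes, against 1.41% of all genes. The kinds were set by liver transcripts, so calls of liver-made genes were built in and carry no test. The 10 genes described here had 0 such calls.

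Of 12 other airway antimicrobial genes tested, 5 rose and 2 fell with IL-33 by edgeR, beside 10.8% and 6.24% of all genes. *Ltf*, which encodes the iron-binding lactoferrin, rose by 3.22 (standard error 0.18) and fell with LM8 by 1.11 (standard error 0.24, edgeR adjusted p = 0.0139), while *Lcn2*, the other iron-withholding gene, had a value of -0.06 with LM8. That fall of *Ltf* did not pass without IL-33 replicate 2 (-0.98), without IL-33+LM8 replicate 1 (-0.88) or in the libraries with liver transcripts alone (-1.11). *Bpifb1*, an airway lipid-binding protein, rose by 2.21 with IL-33, *Pglyrp1*, a peptidoglycan-binding protein, by 2.36 and *Nos2*, the inducible nitric oxide synthase, by 2.26. *Sftpa1*, a surfactant collectin and the most abundant of the 12, differed by 0.16 with IL-33 and 0.51 with LM8, and was not called. *Rnase4*, an RNase, fell by 1.38, as the lysozymes did. *Camp*, the cathelicidin gene of neutrophil granules, rose with LM8 by 2.56 (standard error 0.22, edgeR adjusted p = 0.0003) to 5.49 ± 0.950 FPKM (SD, n = 3).

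Among 10 other WAP domain and protease inhibitor genes, 1 rose and 0 fell with IL-33 by edgeR, near the 10.8% of all genes called higher. *Wfdc17*, a WAP gene of myeloid cells, rose from 3.36 ± 1.21 to 32.5 ± 6.28 FPKM (SD, n = 3, log2 fold change 3.26), beside the 1.47 of *Slpi* and the -0.61 of *Wfdc2*. *Wfdc21* rose with LM8 by 1.53 (edgeR adjusted p = 0.0110). *Cst3*, the gene of cystatin C and the most abundant of the 10, differed by 0.24 with IL-33 and -0.03 with LM8, and was not called.

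Of 15 receptors, ligands and targets of the 10 genes, edgeR called 5 higher and 2 lower with IL-33 and left 8 uncalled, beside 10.8% and 6.24% of all genes called. When LM8 was added, 3 were higher, 3 lower and 9 uncalled, beside 1.46% and 3.93% of all genes. *Igha* and *Jchain*, which encode the heavy chain of IgA and the chain that joins it for transport by the *Pigr* product, rose with IL-33 by 1.25 and 1.71 on the log2 scale. With LM8 they fell by 1.07 and 1.69, to 18.6 ± 1.78 FPKM for *Jchain* (SD, n = 3), while *Pigr* was 0.44 higher. *Hmox1*, which degrades haem, rose by 2.38 with IL-33, where *Hp* was 0.93 lower, and fell by 1.38 with LM8, where *Hp* was 0.69 higher. *Fpr1* and *Fpr2*, formyl peptide receptors, of which *Fpr2* also binds serum amyloid A, fell by 1.96 and 1.41 with IL-33 and rose by 2.97 and 2.90 with LM8. *Mmp9*, a protease bound by the *Lcn2* product, rose by 1.59 with IL-33 and by 1.86 with LM8, beside the 2.71 and -0.06 of *Lcn2*. *Cd163*, the macrophage receptor for haptoglobin bound to haemoglobin, and *Prtn3*, the gene of proteinase 3, were 1.72 and 1.59 higher in IL-33+LM8 mice than in control mice, the latter not without control replicate 2 (1.58) or IL-33+LM8 replicate 2 (1.51). *Cd36*, a receptor of serum amyloid A and the most abundant of the 15, was not called in any comparison. The 3 comparisons share mice in pairs, so values from them are given side by side and are not independent of each other.

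**Figure D3:**
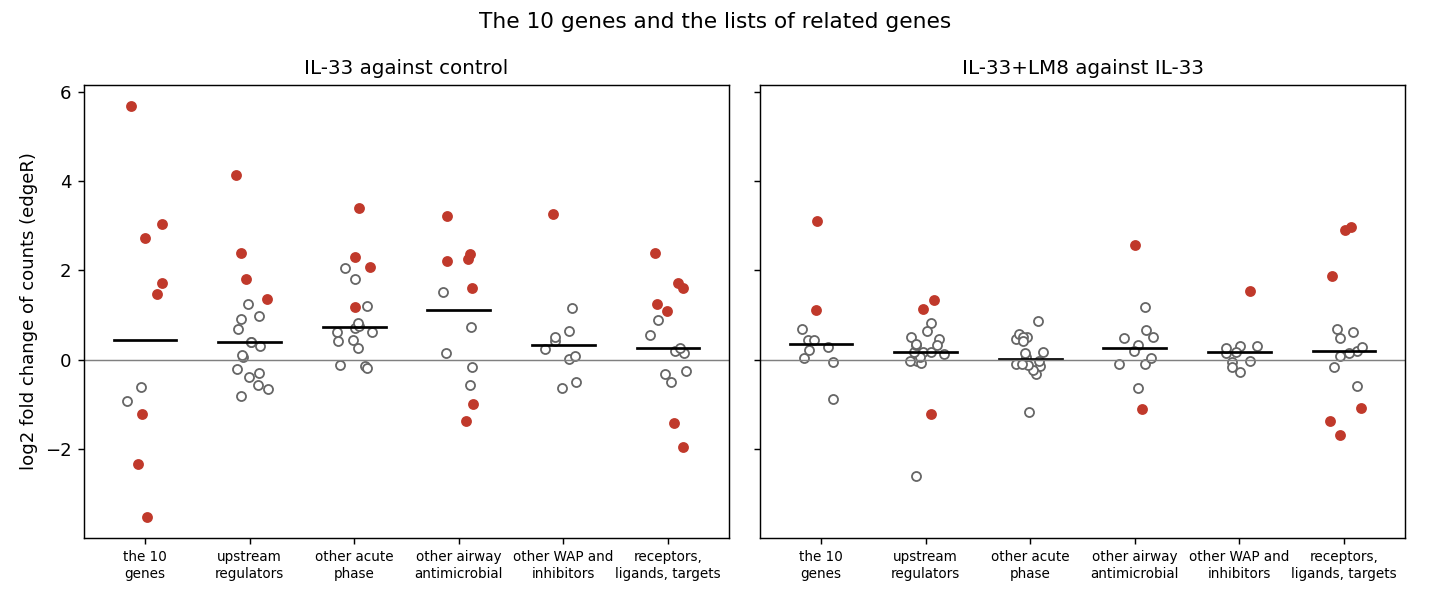
Log2 fold change of counts (y axis, edgeR) of the 10 genes and of the tested genes in 5 lists of related genes (x axis), for IL-33 against control on the left and IL-33+LM8 against IL-33 on the right, with filled points for genes called and a line at the median. The 10 genes reach from -3.53 to 5.69 on the left and from -0.88 to 3.12 on the right.

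Markers of the cell types that these lungs could hold changed in directions that differed between lists, and their part in the results was not tested. The 8 general epithelial markers summed to between 317.3 and 331.2 FPKM in control mice and between 311.1 and 328.2 FPKM in IL-33 mice, and 0 of the 8, among them the most abundant, *Krt8*, were called, while in IL-33+LM8 mice the sum was 283.2 to 301.6 FPKM. Club cell markers, 5 genes led by *Scgb1a1*, summed to 23353 FPKM in control mice, 9223 FPKM with IL-33 and 18056 FPKM with IL-33+LM8, and 4 of 5 fell with IL-33. *Scgb3a2*, *Cyp2f2* and *Aldh1a1* fell by 3.52, 2.57 and 1.502, and with LM8 *Scgb3a2* and *Cyp2f2* rose by 1.84 and 1.31. The group sums of 5 alveolar type 2 markers were 12538, 6019 and 10434 FPKM, most of it *Sftpc*, at 11030, 4993 and 9203 FPKM. With IL-33 the median log2 fold change of these 5 was -0.55 and 1 of 5 fell, as did 1 of 5 ciliated cell markers, *Tppp3*, by 1.51. The alveolar type 2 and ciliated cell sums were both lowest with IL-33 alone and intermediate when LM8 was added, as were *Lyz1*, *Lyz2*, *Hp* and *Wfdc2*. For LM8 against IL-33, edgeR called 0 of 5 markers in each of these 2 lists, beside 5.39% of all genes. The median log2 fold changes of the lists were then 0.16 and 0.44.

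Goblet cell markers summed to 12.5 FPKM in control mice, 461.4 FPKM with IL-33 and 532.5 FPKM with IL-33+LM8, and all 5 rose with IL-33 beside *Lcn2*, *Reg3g* and *Pigr*. Most of the sum was *Clca1*, at 409.9 and 481.2 FPKM in the latter groups. With LM8 the single call in this list was a fall, of the mucin gene *Muc5ac* from 12.5 to 6.09 FPKM (log2 fold change -1.04, edgeR adjusted p = 0.0003), which did not reach the minimum without IL-33 replicate 3 (-0.92) or IL-33+LM8 replicate 3 (-0.99). *Clca1*, *Muc5ac* and *Agr2* had risen by 6.35, 6.14 and 3.64 with IL-33. Neutrophil markers, 8 genes led by *S100a9*, summed to 32.7, 206.9 and 972.0 FPKM, with 8 of 8 higher in IL-33 mice and 6 of 8 higher again with LM8. In that second step, *Lcn2* and *Slpi*, whose proteins neutrophils are known to store, had log2 fold changes of -0.06 and 0.28. The neutrophil markers *S100a9*, *S100a8* and *Ly6g* had 3.41, 3.51 and 3.998. These are changes of RNA, and stored protein was not measured, so the part of neutrophils in *Lcn2* and *Slpi* was not tested. With IL-33 the neutrophil genes *Retnlg*, *Ly6g* and *Cxcr2* had risen by 4.399, 2.90 and 2.86, *Ly6g* not without IL-33 replicate 3 (2.80). Macrophage markers summed to 93.7, 383.6 and 180.8 FPKM, so that *Lyz2* was lowest in the group where this sum was highest, and 7 of 8 macrophage markers rose with IL-33 while *Marco*, a receptor of alveolar macrophages, fell by 1.63. *C1qa*, *Cd68* and *Mrc1* rose by 2.61, 2.42 and 2.19 with IL-33, *Siglecf* and *Cd68* fell with LM8 by 2.04 and 1.34, and *Fcgr1* was 1.37 higher with IL-33+LM8 than in control mice, a call lost without control replicate 1 (1.41) or 2 (1.16) or IL-33+LM8 replicate 2 (1.07). Plasma cell markers summed to 132.8, 219.6 and 151.7 FPKM, and eosinophil markers to 106.0, 670.2 and 181.9 FPKM, with *Epx*, the eosinophil peroxidase gene, at 0 in all control mice. *Mzb1* and *Iglc1* of plasma cells rose by 2.12 and 2.20 with IL-33 and fell by 1.79 and 2.01 with LM8, and *Xbp1*, the most abundant of that list, was not called. Of the eosinophil genes, *Alox15*, *Prg2* and *Ccr3* rose by 7.02, 6.67 and 6.60 with IL-33, and *Ccr3*, *Ear6* and *Prg2* fell by 3.00, 2.33 and 2.31 with LM8. Most of the eosinophil sum was *Ear2*, at 83.25, 552.6 and 144.9 FPKM in the 3 groups. *Ear2* rose by 2.73 and fell by 1.93, and near-identical copies can share the reads of *Ear2* and *Ear6*.

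**Figure D4:**
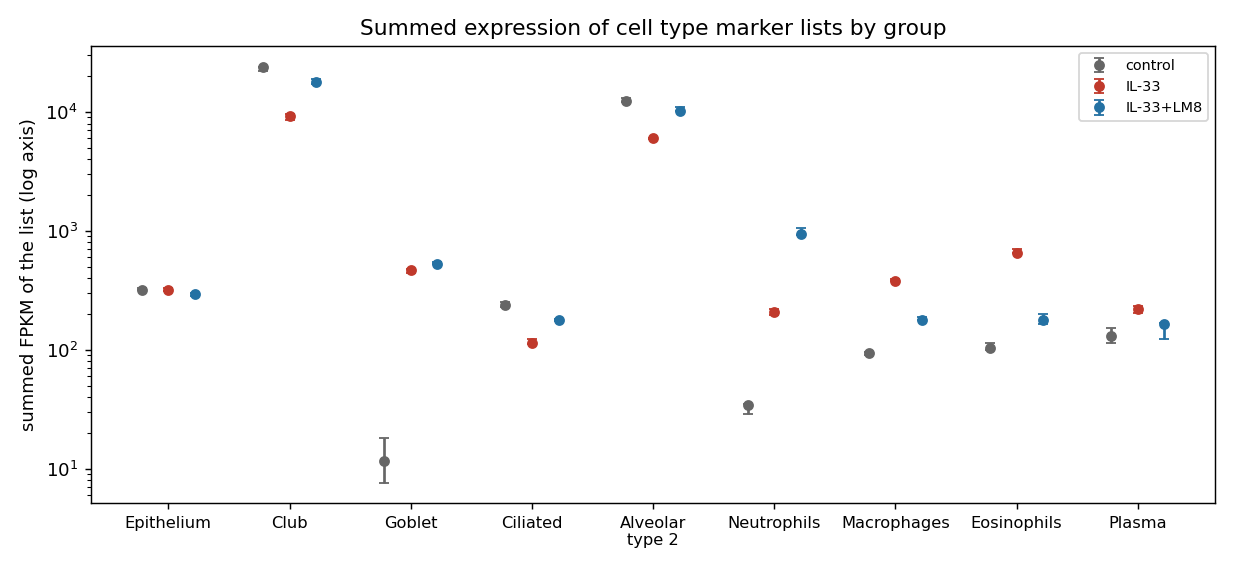
Summed FPKM (y axis, log scale) of 9 cell type marker lists (x axis) in the control, IL-33 and IL-33+LM8 groups, with points for the median and bars from the lowest to the highest of 3 mice. Club, ciliated and alveolar type 2 sums are lowest in IL-33 mice, and the neutrophil sum is highest in IL-33+LM8 mice.

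Across the 9 mice, the genes whose log2(FPKM + 1) was most like each of the 10 were found by Pearson's r, as a description over 9 libraries whose 3 groups differ. For *Hp* they included *Scgb1a1*, the leading club cell gene (r = 0.991). *Reg3g* was most like *Bpifb1* (r = 0.991), which had 18.7, 86.6 and 107.7 FPKM in the 3 groups. *Lcn2* was close to *Retnla* (r = 0.996), the gene of RELMα, at 66.4, 10210 and 7992 FPKM. Those most like *Saa3* included *F10* and *Cfp* (r = 0.997 for both), which encode coagulation factor X and properdin. *Pigr* was most like *Ccl2*, a monocyte chemokine (r = 0.996), which like *Pigr* had its highest mean in IL-33+LM8 mice, 7.62 FPKM against 5.43 in IL-33 mice. *Lyz1* and *Lyz2* had different lists, with *Xpnpep2* first for *Lyz1* and *Hsf4* for *Lyz2* (r = 0.995 and 0.996). The others were *Fer1l6* and *Scin* for *Lcn2*, *Tmc5* and *Cdk5rap3* for *Reg3g*, *Gm10481* for *Saa3*, *Tnip1* and *Casp4* for *Pigr*, *Abcc3* and *Kitl* for *Lyz1*, and *Fhl1* and *Cd99l2* for *Lyz2*. For *Slpi* they were *Slc2a3*, *D730005E14Rik* and *Fgr*, for *Wfdc2* *Atp9a*, *Zswim5* and *Dvl1*, for *Spink5* *Gm49417*, *Cirbp* and *Klf7*, and for *Hp* also *Gm37516* and *Gstk1*. All r values of these 30 lay between 0.981 and 0.998.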

How the data were processed

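RNA of whole lungs from 9 mice was sequenced in paired ends of 150 bases. The table that the authors deposited gives, for each gene and mouse, the raw count of reads and the FPKM. The submitters' processing notes name Bowtie 0.12.2, HISAT2 2.0, StringTie 1.3.0 and build mm10, with no roles, and neither counter nor strand setting is given in the sources used here. The table's coordinates were not those of GRCm38 (620 of 32643 shared genes, and 0 of the 10, had the same start and end). Promoters came from RefSeq (GRCm38.p6), where 8 of the 10 matched by symbol.

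Groups followed the labels. Genes averaging 0.5 FPKM or more in the 9 mice, with a count above 0 in the 6 mice compared were tested (16831, 16831 and 16829) with edgeR 4.0.16 in R 4.3.3 (quasi-likelihood, TMM, Benjamini-Hochberg), each comparison on its own 6 mice. The standard error is the log2 fold change divided by the square root of F. Ratios of mean FPKM carry no pseudocount. Scripts were tested on simulated data. DESeq2 1.42.0, limma 3.58.1 on log2(FPKM + 1), other filters, blocking on the replicate number and leaving out single mice were alternatives. The 2 fits for library kind, and the liver list behind them, were chosen after seeing the data. The 10 genes and all lists were chosen with earlier results of these data known. Named were the 10 genes, per list and comparison the 3 largest changes called and the most abundant gene, whose value is given for at least 1 comparison, and per gene the 3 most like it. Named outside this rule, after their values were seen, were *Alb*, *Saa1*, *Saa2*, *Cebpb*, *Cebpd*, *Socs3*, *Il17a*, *Il17f*, *Il22*, *Il11*, *Rnase4*, *Igha*, *Epx* and the values of rule-named genes in further comparisons.

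Depth was 61767006 to 73869252 counts in control, 53877663 to 66029783 in IL-33 and 59753648 to 90607218 in IL-33+LM8 mice. The p-values measure the spread between 3 libraries a group. Within groups, the chi-square per gene between libraries was 24.2 or more, where 1 is sampling noise, so all 9 were kept. Same-numbered control and IL-33+LM8 libraries deviated together (correlations 0.31 to 0.67), the numbers 3 being the 2 libraries without liver transcripts. Blocking on that number changed no count of the 10 genes.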

Additional observations from a re-analysis of the deposited data

How the results depend on the processing

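Of 477 values of the 10 genes under alternatives, 468 kept direction and side of the threshold, 1 fell below it (*Lyz1*, 0.98 without IL-33 replicate 2), 1 passed it (*Saa3*, -1.15 without IL-33+LM8 replicate 2) and 7 changed sign, the latter all of *Lcn2* or *Reg3g* with LM8 against IL-33, which had not passed. *Reg3g* was there -0.022 and -0.023 by limma with pseudocounts of 1 and 0.1, -0.021 with the replicate block, and -0.28 to 0.27 with 1 mouse left out, and *Lcn2* -0.11 to 0.016. In the same comparison, leaving out 1 mouse gave -0.18 to 0.23 for *Serpina3n*, -0.070 to 0.023 for *Cst3*, -0.016 to 0.58 for *Bpifb1*, -0.043 to 0.11 for *Pglyrp1* and -0.17 to 0.085 for *Osm*, which was 0.12 in libraries with liver transcripts alone. Against control, IL-33+LM8 gave -0.080 to 0.019 for *Cd36* and -0.044 to 0.12 for *Jchain*. Genes called, in the order IL-33 against control, IL-33+LM8 against IL-33 and IL-33+LM8 against control, numbered 2865, 907 and 1233, against 1176, 304 and 469 at a mean FPKM of 5 or more, 1741, 439 and 588 by limma on log2(FPKM + 1), and 9193, 4459 and 4997 with no minimum fold change. With IL-33 against control, the split into higher and lower was 1815 and 1050, and 1281 and 460 by limma. With 1 mouse left out the counts ran from 2729 to 2918, 780 to 963 and 1073 to 1297. Of the 10 genes, LM8 against IL-33 called 1 at a mean FPKM of 5 or more, where *Spink5* was not tested, 6 with no minimum fold change, and 1 (without IL-33 replicate 2) to 3 (without IL-33+LM8 replicate 2) with 1 mouse left out. Same-numbered libraries did not deviate together with IL-33 against control (correlations -0.42 to 0.28) or IL-33+LM8 against IL-33 (-0.40 to 0.22), and the replicate block gave 2841, 836 and 1364 genes and 8, 2 and 6 of the 10. Depth limits *Spink5*, at 27 to 97 counts in IL-33 mice.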
